A study of Mus musculus with 10 samples.

Results

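Blood endothelial cells (BECs) of the ear skin were compared between 5 mice that expressed an activated form of the PI3K catalytic subunit p110α in their endothelium and 2 control mice. The mutant mice were *Pik3caH1047R*;*Cdh5-CreERT2* and Cre+, and had received 4-hydroxytamoxifen (4-OHT, 10 mg/ml in acetone) on the ears at 3 wk of age. Control 2 was a Cre- mouse of the same strain with the same 4-OHT treatment, and control 1 an untreated C57BL/6J mouse. All mice were 5 wk old at analysis, and 1 further Cre- control is not analysed here. The transgene lies in the *Rosa26* locus behind a stop cassette that Cre removes, and *Cdh5-CreERT2* is active in blood and lymphatic endothelium alike, so effects that arise within BECs and effects of other mutant vessels on them cannot be told apart. Its transcript is of chicken sequence and is not among the counted genes. Endogenous *Pik3ca*, which therefore checks nothing about the transgene, was at 40.4 and 49.4 CPM (read counts scaled to the same library total in every mouse) in the controls and at 30.3, 19.2, 30.1, 21.9 and 17.7 CPM in mutants 1 to 5 (log2 fold change -0.91 ± 0.28 SE, adjusted p = 0.148).

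Cells had been stained for Podoplanin and CD31, sorted into 384-well plates and sequenced by Smart-Seq2, which reads the whole length of the cDNA of each cell and uses no molecular barcodes. A well was kept with at least 50000 reads, at least 200 genes and at most 10% mitochondrial reads, which held for 3248 of 3456 wells on 9 plates. A kept cell was taken as a BEC when *Flt1*, *Emcn* and *Podxl* together reached 300 CPM and exceeded *Prox1*, *Flt4* and *Mmrn1* together. Cells in which 7 cell cycle genes summed to 500 CPM or more were left out. This gave 1420 BECs, 157 and 152 from the controls and 174, 168, 313, 171 and 285 from mutants 1 to 5. Their reads were added up per mouse, to 34410880–92535339 reads, and each mouse was 1 sample. The labels describe the sorted cells as LECs (lymphatic endothelial cells), whereas by the paper's methods both BECs and LECs were sorted. Nearly as many BECs as non-cycling LECs (1477) were on the plates.

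PI3K turns receptor signals at the endothelial cell membrane into lipid second messengers that activate AKT and mTORC1 and hold FOXO factors out of the nucleus. Blood vessels differ along their length. Arterial cells carry NOTCH ligands, connexins and CXCL12, capillary cells handle fatty acids and other solutes, and venules carry the selectins and adhesion molecules on which leukocytes roll and stop. Activating *PIK3CA* mutations are a known cause of venous malformations, which are dilated, slow-flow vessels.

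The cells carried blood endothelial markers that the selection had not used, whose sum over 12 genes was 11470 and 11830 CPM in the controls and 10910–13470 CPM in the mutants, where none passed the test (edgeR, 3 higher and 3 lower at an unadjusted p under 0.05). Pan-endothelial markers summed to 11310 and 10800 CPM in the controls and to 12500–13670 CPM in the mutants, and lymphatic markers (12 genes, 3 of them of the selection rule) to 723 and 332 CPM against 215–788 CPM. None of the 9 lymphatic markers outside the rule passed the test (edgeR, 2 at an unadjusted p under 0.05). RNA of other skin cells was not even between the groups. The 10 fibroblast markers summed to 1018 and 747 CPM in the controls and 20.1–84.7 CPM in the mutants, and 5 of the 10 were called lower. Pericyte and smooth muscle markers summed to 1105 and 458 CPM against 175–406 CPM, and keratinocyte markers to 851 and 548 CPM against 27.0–1091 CPM. The plate numbers form 2 series, with both controls and mutant 5 in one and mutants 1 to 4 in the other, so genotype and plate series are largely confounded. *Xist* and Y-linked genes marked control 1 and mutants 3 to 5 as female and the others as male.

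Of 19161 genes tested, 245 were higher in mutant BECs (1.28%) and 91 were lower (0.475%) at an adjusted p under 0.05 in edgeR's quasi-likelihood test, and these are termed called below. At an unadjusted p under 0.05, 10.9% of genes were higher and 7.68% lower, and 50.1% of all log2 fold changes were positive and 49.9% negative. Each called gene had groups of mice that did not overlap, as 24.2% of all tested genes had. Functional gene lists held 55 of the higher and 18 of the lower genes, and 12 of 49 lists held no called gene. The largest numbers of risen genes were in the lists for glycolysis, venules, matrix and leukocyte adhesion, and the most fallen genes were immediate-early genes (bar plot of the lists). With the plate series as a block, 36 genes were called higher and 9 lower, among them 4 matrix genes, 1 venous gene, 1 glycolysis gene and no immediate-early gene. In that fit the genotype effect came from mutant 5 against the controls, because mutants 1 to 4 were alone in their series. It is therefore no separate check over all mutant mice. Mutant 5 against the controls of its series gave no call (edgeR, 1120 genes at an unadjusted p under 0.05), but list medians of 0.98 for venous, 0.57 for glycolysis and -0.51 for immediate-early genes. With sex as a covariate 172 genes were higher and 61 lower, and of the 94 called genes followed singly 69 were called. Those lost included *Vcam1*, *Flrt2*, *Hif1a*, *Dll4* and *Junb* (adjusted p = 0.0578, 0.0675, 0.0739, 0.0696 and 0.0559). The median log2 fold change over all tested genes was 0.00, against which the medians of lists are read below. Fewer cells of a vessel type and less RNA per cell cannot be told apart in such sums.

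Genes of venules and of leukocyte capture were higher in mutant BECs. In the venous list 8 of 20 tested genes rose and none fell, all 20 had a positive fold change, and the median was 1.09. *Selp* (chromosome 1, 164115264–164150026), encoding P-selectin, which venules store and bring to the surface to slow leukocytes, was at 141 and 101 CPM in the controls and at 742, 575, 778, 604 and 436 CPM in mutants 1 to 5. Every mutant mouse was above both controls (log2 fold change 2.37 ± 0.27, adjusted p = 0.00707). *Sele*, encoding E-selectin, its cytokine-induced relative, stood at 51.1 and 32.1 CPM against 175, 220, 168, 233 and 186 CPM (2.24 ± 0.25, adjusted p = 0.00688). *Icam1*, encoding a ligand of leukocyte integrins, went from 192 and 135 CPM to 507, 414, 501, 514 and 420 CPM (1.53 ± 0.19, adjusted p = 0.00975). The groups of mice were apart for all 3 genes, as for every called gene. *Vcam1*, another integrin ligand, was low in the controls, at 13.8 and 7.15 CPM, and at 40.3–90.1 CPM in the mutants (2.48 ± 0.43, adjusted p = 0.0323).

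Regulators and receptors of the venous list moved with the selectins. *Nr2f2*, encoding the transcription factor COUP-TFII, which maintains venous identity, was at 43.2 and 23 CPM in the controls and at 131, 105, 110, 98.6 and 104 CPM in the mutants (1.73 ± 0.27, adjusted p = 0.0220). *Prcp*, encoding a lysosomal carboxypeptidase, rose by 1.57 ± 0.15 on the log2 scale (adjusted p = 0.00437), and *Il1r1*, the interleukin-1 receptor, by 1.48 ± 0.23 (adjusted p = 0.0206). The remaining called venous gene was *Flrt2*, a transmembrane guidance protein, at 28.8 and 8.47 CPM against 75.5–159 CPM. The abundant venous genes *Vwf*, the von Willebrand factor, and *Lrg1* had group means of 828 and 1543 CPM and of 553 and 1140 CPM, and did not pass the test (adjusted p = 0.0865 and 0.102). In the leukocyte adhesion and chemokine list 6 of 36 genes rose and 1 fell, with a median of 1.17. This median was 0.48 without mutant 5 and 0.72 without control 2, and 3 genes were called higher without control 2, mutant 1 or mutant 3. The risen gene not named above was *Csf1*, a macrophage growth factor, at 22.3 and 37.6 CPM against 62.4–92.3 CPM (adjusted p = 0.0469, and up to 0.116 in fits that left out 1 mouse, all of which lost the call). The fallen gene was *Cxcl12*. *Flrt2* and *Csf1* lie outside the rule for named genes and were added after their values were seen.

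The venous calls did not all rest equally on the mice. With 1 mouse left out at a time, *Sele*, *Icam1* and *Prcp* stayed called in all 7 fits, whereas *Selp* reached an adjusted p of 0.0520 without control 2, and *Nr2f2*, *Il1r1*, *Vcam1* and *Flrt2* lost their call in 3 to 5 fits, with adjusted p of up to 0.0601, 0.0717, 0.128 and 0.0890. The number of venous genes called higher was 3 to 9 over these fits, with 3 without control 2. With the wells left out in which the fibroblast markers reached 100 CPM, it was 5, and *Nr2f2* was at an adjusted p of 0.0603.

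The selectin and adhesion genes were also found in more cells. After every cell was thinned to 50000 reads, *Selp* had a read in 36.3% and 19.7% of control BECs and in 78.2, 57.1, 68.4, 49.7 and 61.0% of the BECs of mutants 1 to 5. For *Sele* the shares were 17.2% and 9.87% against 34.5–40.8%, and for *Icam1* 47.1% and 28.3% against 55.4–71.8%. In each case the lowest mutant mouse was above the higher control.

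**Figure D1:**
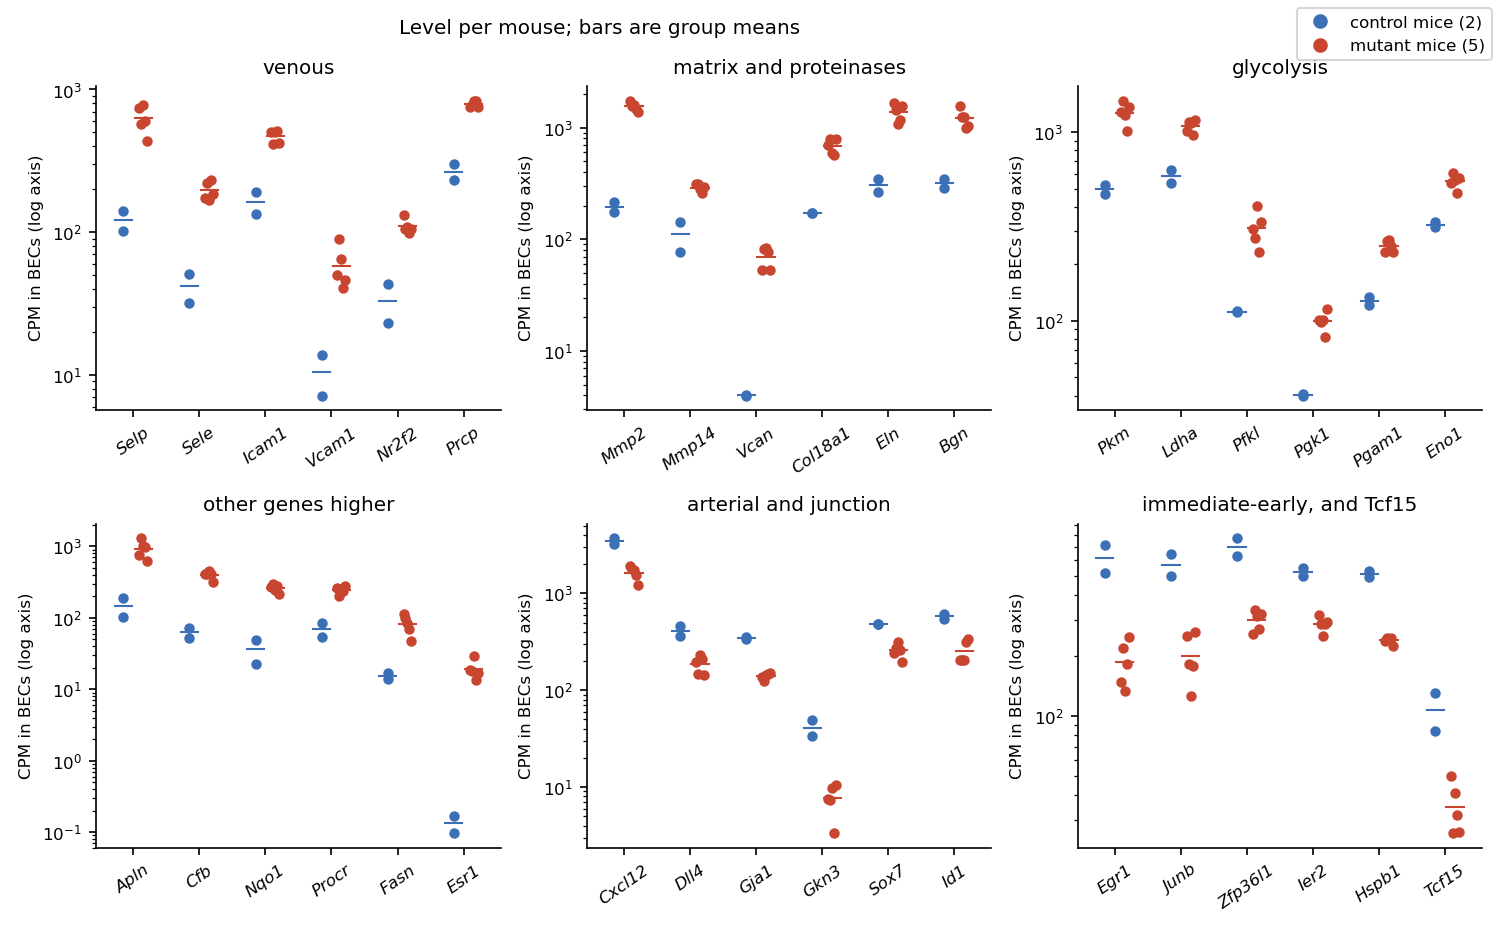
Each point is the CPM of a gene in the summed BECs of 1 mouse, on a log axis, with 2 control mice in blue and 5 mutant mice in red and short bars at the group means, in 6 panels by function. For every gene shown the 2 groups are separate, as for every called gene, with *Mmp2* at 174–215 CPM in control and 1377–1740 CPM in mutant mice and *Egr1* at 515–712 and 133–248 CPM.

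A part of the matrix genes and 3 genes of matrix cleavage were higher. *Mmp2* (chromosome 8, 92827291–92853420), encoding gelatinase A, which cleaves basement membrane collagen, was at 215 and 174 CPM in the controls and at 1740, 1560, 1609, 1456 and 1377 CPM in mutants 1 to 5. This gene had the lowest adjusted p of those named, 0.00072, at a log2 fold change of 2.99 ± 0.16, and stayed called with each mouse left out. Its membrane-bound activator *Mmp14* was at 77.0 and 144 CPM against 310, 310, 279, 257 and 296 CPM (1.39 ± 0.25, adjusted p = 0.0330), and *Timp2*, an inhibitor that also takes part in this activation, rose by 1.17 ± 0.19 (adjusted p = 0.0258). These 3 genes, which act in the same step, were the called ones among 28 proteinases and inhibitors. The abundant members *Bsg*, *Adam15* and *Timp3* had log2 fold changes of 0.13, 0.16 and -0.37 and did not pass the test.

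Of 51 basement membrane and matrix genes 7 rose and none fell, 31 had a positive fold change, and the median was 0.25 (0.03 for mutant 5 against the controls of its plate series). At an unadjusted p under 0.05 in edgeR 13 were higher and 10 lower, and DESeq2 called 10 higher and 3 lower, so the list moved in both directions. *Vcan*, encoding the large proteoglycan versican of provisional matrix, had the largest change, from 4.01 and 3.97 CPM to 53.2, 82.4, 83.1, 77.4 and 52.5 CPM (4.13 ± 0.33, adjusted p = 0.00406). *Eln*, encoding elastin, was at 348 and 266 CPM against 1676, 1431, 1067, 1160 and 1570 CPM (2.17 ± 0.23, adjusted p = 0.00538). *Col18a1*, encoding the basement membrane collagen from which endostatin is cut, was at 172 CPM in both controls and at 699, 795, 597, 564 and 785 CPM in the mutants (2.00 ± 0.19, adjusted p = 0.00437). The other called genes also belong to elastic fibres or their surroundings, namely *Fbn1* for fibrillin-1 (1.97 ± 0.21), the fibulins *Fbln5* (1.39 ± 0.24) and *Fbln2* (1.10 ± 0.20) and the small proteoglycan *Bgn* (1.95 ± 0.21). *Sparc*, at a mean of 3100 CPM in the controls and 4413 CPM in the mutants, did not pass the test (adjusted p = 0.202). *Vcan*, *Eln*, *Col18a1*, *Fbn1* and *Bgn* stayed called in all 7 fits that left out 1 mouse, while *Mmp14*, *Timp2*, *Fbln5* and *Fbln2* did not, with adjusted p of up to 0.0862, 0.110, 0.136 and 0.108. Of the integrins, which bind matrix, 2 of 22 rose, the fibronectin receptor subunit *Itga5* (0.99 ± 0.16) and the laminin receptor subunit *Itgb4* (0.80 ± 0.16), called in 3 and 1 of the 7 fits that left out a mouse (adjusted p up to 0.108 and 0.165).

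Glycolysis was the list with the most risen genes, 9 of 30, with 1 fallen gene and a median of 0.57. *Pkm* (chromosome 9, 59656368–59679375), encoding the muscle-type pyruvate kinase of the last step, was at 469 and 527 CPM in the controls and at 1272, 1468, 1233, 1011 and 1368 CPM in mutants 1 to 5 (1.35 ± 0.17, adjusted p = 0.0096). *Ldha*, encoding lactate dehydrogenase A, was at 537 and 631 CPM against 1013, 1130, 1119, 960 and 1163 CPM (0.88 ± 0.13, adjusted p = 0.0197). *Pfkl*, the liver-type phosphofructokinase of the committed step, was at 113 and 111 CPM against 306, 275, 405, 230 and 333 CPM (1.47 ± 0.23, adjusted p = 0.0204). No mutant mouse overlapped a control for any of them, as for every called gene. Further steps of the pathway rose too, with *Pgk1* at 1.30 ± 0.19, *Pgam1* at 0.96 ± 0.15, *Aldoa* at 0.80 ± 0.15 and *Eno1* at 0.77 ± 0.14 on the log2 scale. The remaining risen genes, named after their values were seen, were *Pfkm* and the lactate exporter *Slc16a3*, the latter at 2.11 and 2.84 CPM against 29.6, 26.5, 45.4, 18.6 and 101 CPM. The fallen gene was *Eno2*, the neuronal enolase, at 2.95 and 2.09 CPM against 0.0230–0.210 CPM.

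The 30 glycolysis genes summed to 4531 and 4335 CPM in the controls and to 6946, 7451, 7390, 6515 and 8468 CPM in the mutants, with mutant 5 the highest. In edgeR with the plate series as a block, the genotype effect came from mutant 5 against the controls. There *Slc16a3*, which was highest in mutant 5, alone of the risen genes stayed called (adjusted p = 0.02685). *Pkm* and *Ldha* were then at adjusted p of 0.0591 and 0.0911. *Pkm* stayed called in all 7 fits that left out 1 mouse. The other 8 risen genes lost their call in at least 3 of them, with adjusted p of up to 0.0667–0.152, and the number called was 1 without control 2, 2 without control 1 or mutant 3 and up to 9 otherwise. In cells, *Pkm* had a thinned read in 88.5% and 79.6% of control BECs and in 94.6–99.0% of mutant BECs. Among 19 hypoxia-responsive genes 1 rose, *Hif1a*, which encodes the oxygen-regulated factor that drives many glycolysis genes, at 410 and 396 CPM against 654, 997, 982, 775 and 699 CPM (1.03 ± 0.20, adjusted p = 0.0469). It was called in 1 of the 7 fits that left out a mouse, with adjusted p of up to 0.166. The glucose transporter *Slc2a1* had means of 130 and 241 CPM with groups that overlapped (adjusted p = 0.313).

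The promoters of 3 risen glycolysis genes are shown because they hold the letters ACGTG, the core of the hypoxia response element to which HIF1A binds. Windows run from 250 bases before to 50 bases after an annotated start, are from RefSeq (GRCm38.p6) and are written 5′ to 3′ on the gene's strand. Capitals mark ACGTG or its reverse complement CACGT, in non-overlapping matches.
*Ldha*, chr7:46845554-46845853, plus strand: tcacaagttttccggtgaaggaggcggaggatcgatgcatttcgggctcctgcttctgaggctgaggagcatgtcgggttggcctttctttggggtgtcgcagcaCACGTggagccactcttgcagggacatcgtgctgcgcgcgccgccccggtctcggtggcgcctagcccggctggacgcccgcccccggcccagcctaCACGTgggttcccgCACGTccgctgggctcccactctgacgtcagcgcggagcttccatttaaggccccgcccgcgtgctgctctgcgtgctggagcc
*Pgk1*, chrX:106186850-106187149, plus strand: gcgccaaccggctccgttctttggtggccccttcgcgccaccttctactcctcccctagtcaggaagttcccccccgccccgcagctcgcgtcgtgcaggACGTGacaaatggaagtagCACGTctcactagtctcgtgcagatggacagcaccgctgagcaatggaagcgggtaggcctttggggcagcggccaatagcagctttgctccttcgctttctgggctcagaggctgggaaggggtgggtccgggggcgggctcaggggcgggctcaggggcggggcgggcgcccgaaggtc
*Pkm*, chr9:59656977-59657276, plus strand: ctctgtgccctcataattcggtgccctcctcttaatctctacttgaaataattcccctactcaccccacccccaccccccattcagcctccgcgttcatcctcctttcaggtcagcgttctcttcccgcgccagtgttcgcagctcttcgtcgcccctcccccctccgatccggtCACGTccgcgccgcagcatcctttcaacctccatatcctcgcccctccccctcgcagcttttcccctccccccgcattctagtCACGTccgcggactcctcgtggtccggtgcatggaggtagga
Searched on both strands, the letters were in at least 1 window of 7 of the 9 risen genes, all but *Pfkl* and *Eno1*. They were in 8 of the 20 other tested glycolysis genes with a window, in 21.8% of 27025 genes and in 19.6% of 32851 windows. The same letters occur in the core of other motifs such as the E-box CACGTG, and several of these genes have more than 1 window. *Ldha* and *Pkm* each have a further window, at chr7:46846832-46847131 and chr9:59656326-59656625, that lacks the letters and is not shown. A match here is a description of the sequence and says nothing of binding.

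Angiogenic signals were mixed. *Apln* (X chromosome, 48025146–48034853), encoding the peptide apelin, which sprouting tip cells release, was at 102 and 190 CPM in the controls and at 757, 1288, 1009, 974 and 613 CPM in mutants 1 to 5. All mutants were above the controls (2.67 ± 0.37, adjusted p = 0.014, and 0.0520 without control 1), and 62.0–77.0% of mutant BECs had a thinned read of *Apln* against 22.9% and 27.0%. Its receptor *Aplnr* had means of 679 and 886 CPM and overlapping groups (adjusted p = 0.506). *Marcksl1*, an actin-binding protein of growing vessels, was at 8.26 and 10.9 CPM against 90.0, 65.5, 55.1, 61.3 and 66.8 CPM (2.82 ± 0.29, adjusted p = 0.00522). The tip cell list of 36 genes held these 2 called rises and 1 called fall, that of *Dll4*. In edgeR 7 of its genes were higher and 8 lower at an unadjusted p under 0.05, and DESeq2 called 7 higher and 4 lower. Among 13 VEGF ligands, receptors and neuropilins none was called (edgeR, 1 at an unadjusted p under 0.05, and 1 by DESeq2), and *Kdr*, the main VEGF receptor, had means of 567 and 504 CPM. Of 8 angiopoietin and TIE genes none was called, with 4 at an unadjusted p under 0.05 and 3 by DESeq2. *Tie1* had means of 741 and 1366 CPM (adjusted p = 0.0771).

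Transcripts of the PI3K pathway itself were not among the called genes. Of 25 PI3K subunits and lipid phosphatases edgeR called none, with 3 higher and 3 lower at an unadjusted p under 0.05 and 2 and 2 by DESeq2, and the median was -0.04. Of 26 mTORC1 regulators none was called, with 2 lower at an unadjusted p under 0.05 and 1 by DESeq2. Among 28 FOXO factors and FOXO-responsive genes the transcriptional repressor *Bcl6* fell, from 17.2 and 14.9 CPM to 2.1, 1.38, 2.31, 4.25 and 1.43 CPM (-2.81 ± 0.54, adjusted p = 0.0433). This call was kept in 1 of 7 fits that left out a mouse. The ATF4-responsive amino acid genes had no call among 35 (7 higher and 3 lower at an unadjusted p under 0.05, and 6 higher by DESeq2), and the mean level of *Slc38a2*, a glutamine transporter, was 117 CPM in control and 220 CPM in mutant mice (adjusted p = 0.0736).

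Lipid synthesis and oxidant defence each had 2 risen genes. *Fasn*, encoding fatty acid synthase, was at 14 and 16.9 CPM in the controls and at 111, 99.5, 83.3, 69.9 and 47.9 CPM in the mutants (2.42 ± 0.36, adjusted p = 0.0187). The desaturase *Scd2* rose by 1.41 ± 0.20 (adjusted p = 0.0146), and these were the called genes of 39 in the SREBP list, whose factor *Srebf1* had means of 94.6 and 99.7 CPM. *Nfe2l2*, encoding the oxidant-responsive factor NRF2, was at 144 and 148 CPM against 254, 277, 279, 283 and 255 CPM (0.89 ± 0.13, adjusted p = 0.0191). *Nqo1*, a quinone reductase and a known NRF2 target, was at 49.5 and 22.9 CPM against 271, 298, 248, 276 and 218 CPM (2.86 ± 0.32, adjusted p = 0.00688). Both genes came from a list of 24 shear-responsive KLF factors and partners, in which *Nos3*, the endothelial nitric oxide synthase, had means of 364 and 372 CPM. In edgeR 6 genes of this list were higher and 4 lower at an unadjusted p under 0.05, and DESeq2 called 4 higher and 2 lower. A response to flow was not tested. *Nqo1* stayed called in all 7 fits that left out 1 mouse. *Nfe2l2* did not (adjusted p up to 0.0692), nor did *Scd2* (0.0711) and *Fasn* (0.0788).

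Genes that act on blood and vessel tone included several rises. *Procr*, the endothelial receptor for protein C that holds clotting back, was at 85.1 and 54.5 CPM in the controls and at 265, 203, 243, 234 and 275 CPM in the mutants (1.80 ± 0.23, adjusted p = 0.00975). Clotting factor V, *F5*, had 1 read in the summed control BECs and 1986 in the mutants, a ratio of 535 with a counting interval (95%) of 95.9–21150. These were the 2 called of 28 coagulation genes (edgeR, 9 higher and 1 lower at an unadjusted p under 0.05, and 8 and 1 by DESeq2). The prostaglandin transporter *Slco2a1* was at 230 and 108 CPM against 728, 928, 642, 576 and 636 CPM (2.06 ± 0.33, adjusted p = 0.0219), and *Ptgs1*, encoding cyclooxygenase-1, at 143 and 76.5 CPM against 301–370 CPM (1.60 ± 0.25, adjusted p = 0.0204). *Ddah1*, which breaks down an inhibitor of nitric oxide synthesis, rose by 1.68 ± 0.31. With 1 mouse left out at a time *Procr* stayed called, while *F5*, *Slco2a1*, *Ptgs1* and *Ddah1* reached adjusted p of 0.0627, 0.0601, 0.0548 and 0.158. The complement gene *Cfb*, encoding factor B of the alternative pathway, was at 73.0 and 51.6 CPM against 415, 405, 449, 415 and 313 CPM (2.68 ± 0.22, adjusted p = 0.00428) and stayed called with each mouse left out. Its reads cannot be separated from those of *Gm20547*, an overlapping gene model. In 21 complement and acute-phase genes it was the only call. The list median, 0.84, was 0.24 without control 2, 0.43 without mutant 5 and 1.46 without control 1.

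Smaller groups had few calls, though in some lists edgeR had more genes higher at an unadjusted p under 0.05. By that limit 10 of 37 lysosome genes were higher and 2 lower (DESeq2 called 10 and 1). Of 20 caveolae and fenestration genes 6 were higher and 1 lower (DESeq2 5 and 1). Of 22 NF-kB genes 8 were higher and 1 lower (DESeq2 5 and 1), and of 43 TGF-beta and BMP genes 10 and 5 (DESeq2 8 and 4). *Ehd4*, a membrane-remodelling ATPase, rose by 1.28 ± 0.15 among 20 caveolae and fenestration genes, *Neu1*, the lysosomal sialidase, by 1.79 ± 0.33 among 37 lysosome genes, and *Tnfrsf1a*, the main TNF receptor, by 0.82 ± 0.14 in the NF-kB list of 22 genes, which also holds *Il1r1*. *Fstl1*, a secreted glycoprotein that binds BMP ligands, was at 396 and 368 CPM in the controls and at 1436, 1606, 1426, 1243 and 1301 CPM in the mutants (1.88 ± 0.14, adjusted p = 0.00398). *Igfbp4*, which binds insulin-like growth factors, was at 383 and 265 CPM against 1426, 919, 948, 686 and 897 CPM (1.59 ± 0.29, adjusted p = 0.0384). Fatty acid handling had 2 rises in 26 genes, the binding protein *Fabp5* (1.04 ± 0.18) and the mitochondrial *Cpt2* (1.51 ± 0.23). *Sema5b* (3.19 ± 0.45), *Nectin2* (1.00 ± 0.15), the chromatin assembly factor subunit *Chaf1b* (1.48 ± 0.25) and the ribosome biogenesis factor *Pes1* (0.93 ± 0.17) completed these lists. Of this paragraph's genes *Fstl1* and *Ehd4* stayed called in all 7 fits that left out 1 mouse, and the others lost the call in 2 to 6 of them.

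Immediate-early genes, which respond within minutes to stimuli and to tissue digestion, were lower in mutant BECs. Of 32 tested 5 fell and none rose, with a median of -0.69, and the whole list summed to 8450 and 8200 CPM in the controls and to 3567–5480 CPM in the mutants. *Egr1* (chromosome 18, 34859823–34864984), encoding a zinc finger factor, was at 515 and 712 CPM in the controls and at 147, 217, 133, 182 and 248 CPM in mutants 1 to 5 (-1.73 ± 0.25, adjusted p = 0.0146). The AP-1 subunit *Junb* was at 641 and 498 CPM against 250, 181, 125, 178 and 261 CPM (-1.52 ± 0.26, adjusted p = 0.0310). The small heat shock protein gene *Hspb1* was at 492 and 530 CPM against 236, 244, 242, 246 and 222 CPM (-1.10 ± 0.12, adjusted p = 0.00538). *Zfp36l1*, an mRNA decay factor, fell by 1.21 on the log2 scale and *Ier2* by 0.87. Groups of mice were apart for all 5 genes, as for every called gene. Those of *Dusp1* and *Btg2* overlapped, and *Fos*, at means of 861 and 487 CPM, did not pass the test (adjusted p = 0.349). A thinned *Egr1* read was in 87.9% and 73.7% of control and 29.4–46.3% of mutant BECs. *Hspb1* stayed called in all 7 fits that left out 1 mouse, *Egr1* and *Zfp36l1* in all but that without control 2 (adjusted p = 0.0877 and 0.0579), and *Junb* and *Ier2* in 2 and 3. The list had 1 called gene without control 2 and 7 without mutant 5. The time from tissue to sorting was not among the values, and its part was not tested.

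Arterial genes moved in both directions. Of 22 tested 3 fell and 2 rose, and the median was -0.71, with 17 of the 22 negative. *Cxcl12* (chromosome 6, 117168535–117181367), encoding the chemokine CXCL12, was at 3253 and 3693 CPM in the controls and at 1908, 1790, 1740, 1566 and 1209 CPM in the mutants (-1.08 ± 0.17, adjusted p = 0.0198). *Dll4*, encoding the NOTCH ligand of arterial and tip cells, was at 359 and 458 CPM against 198, 148, 231, 210 and 143 CPM (-1.14 ± 0.21, adjusted p = 0.0406), and *Gkn3*, an arterial marker in mouse vessels, at 33.4 and 49.0 CPM against 3.32–10.5 CPM (-2.42 ± 0.42, adjusted p = 0.0310). The risen arterial genes were *Eln* and *Fbln5*, which encode elastic fibre proteins. *Gja1*, encoding connexin 43, was at 337 and 358 CPM against 136, 123, 145, 148 and 152 CPM (-1.30 ± 0.13, adjusted p = 0.00538) and stayed called in all 7 fits that left out 1 mouse. *Cxcl12* lost its call without control 2 or mutant 3 (adjusted p up to 0.0980), and *Dll4* and *Gkn3* were called in 1 and 2 of the 7 fits. *Dll4* was also the single call among 22 Notch genes, of which 19 had a negative fold change (median -0.43, and -0.19 without control 1), and *Notch1* had means of 491 and 520 CPM.

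Capillary genes were lower in sum, at 18630 and 18500 CPM in the controls and 14600–16390 CPM in the mutants, but 1 of 20 was called, *Tcf15*, encoding a factor for fatty acid uptake in capillaries, at 131 and 83.7 CPM against 50.1, 25.8, 40.9, 32.1 and 26.1 CPM (-1.61 ± 0.30, adjusted p = 0.0396). The fatty acid transporter *Cd36* had means of 2215 and 1263 CPM without overlap and did not pass the test (adjusted p = 0.0975). *Id1*, a target of BMP signals, was at 544 and 612 CPM against 204, 206, 203, 312 and 338 CPM (-1.19 ± 0.23, adjusted p = 0.0455), *Sox7*, an endothelial transcription factor, at 486 and 480 CPM against 197–317 CPM (-0.91 ± 0.18, adjusted p = 0.0447), and the sphingosine-1-phosphate receptor gene *S1pr4* at 166 and 113 CPM against 42.4–77.0 CPM (-1.30 ± 0.25, adjusted p = 0.0457). These 4 calls, all near the threshold, were kept in 1 or 2 of the 7 fits that left out a mouse, with adjusted p of up to 0.139–0.170.

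Interferon and antigen processing genes had a few falls. *Xaf1*, an interferon-induced regulator of cell death, was at 135 and 164 CPM in the controls and at 70.0, 72.5, 77.5, 68.1 and 80.4 CPM in the mutants (-1.02 ± 0.15, adjusted p = 0.0191). It was the 1 call in 44 interferon-stimulated genes, where 10 were lower and none higher at an unadjusted p under 0.05 (DESeq2 called 5 lower), and the median was -0.31 (-0.16 without mutant 5). The immunoproteasome subunit *Psmb9* was at 159 and 158 CPM against 60.1–77.8 CPM (-1.16 ± 0.16, adjusted p = 0.014), and the proteasome activator *Psme2* at 199 and 246 CPM against 87.5–129 CPM (-0.98 ± 0.19, adjusted p = 0.0446). The class I molecules *H2-D1* and *H2-K1* had means of 1691 and 2069 CPM and of 1438 and 1567 CPM and did not pass the test. *Psmb9* and *Psme2* were the 2 calls in 28 antigen genes. In edgeR 4 genes of this list were higher and 7 lower at an unadjusted p under 0.05, and DESeq2 called 1 higher and 4 lower. *Psmb9* shares exon sequence with *Tap1* on the other strand, and *Psmb9*, *Xaf1* and *Psme2* kept their call in 5, 3 and 1 of the 7 fits that left out 1 mouse.

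Ribosomal protein genes had a low median, -0.79 over 83 genes, yet edgeR called none of them (56 lower at an unadjusted p under 0.05, and 34 by DESeq2). Their sums were 23550 and 32880 CPM in the controls and 16540, 17870, 15310, 13520 and 23710 CPM in mutants 1 to 5, so mutant 5 lay above control 1. The median was -0.28 for mutant 5 against the controls of its plate series and -0.38 without control 2. The 78 nuclear oxidative phosphorylation genes had a median of -0.69, which was -0.19 for mutant 5 alone and -0.16 without control 2. It was -1.06 without control 1 and -0.86 without mutant 5, where edgeR called 4 lower. In all mice edgeR called 1 of them higher and none lower. At an unadjusted p under 0.05, 5 were higher and 37 lower, and DESeq2 called 4 higher and 14 lower. Cell cycle genes outside the selection rule had no call among 34 mitotic genes (edgeR, 7 higher and 1 lower at an unadjusted p under 0.05, and 7 higher by DESeq2).

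**Figure D2:**
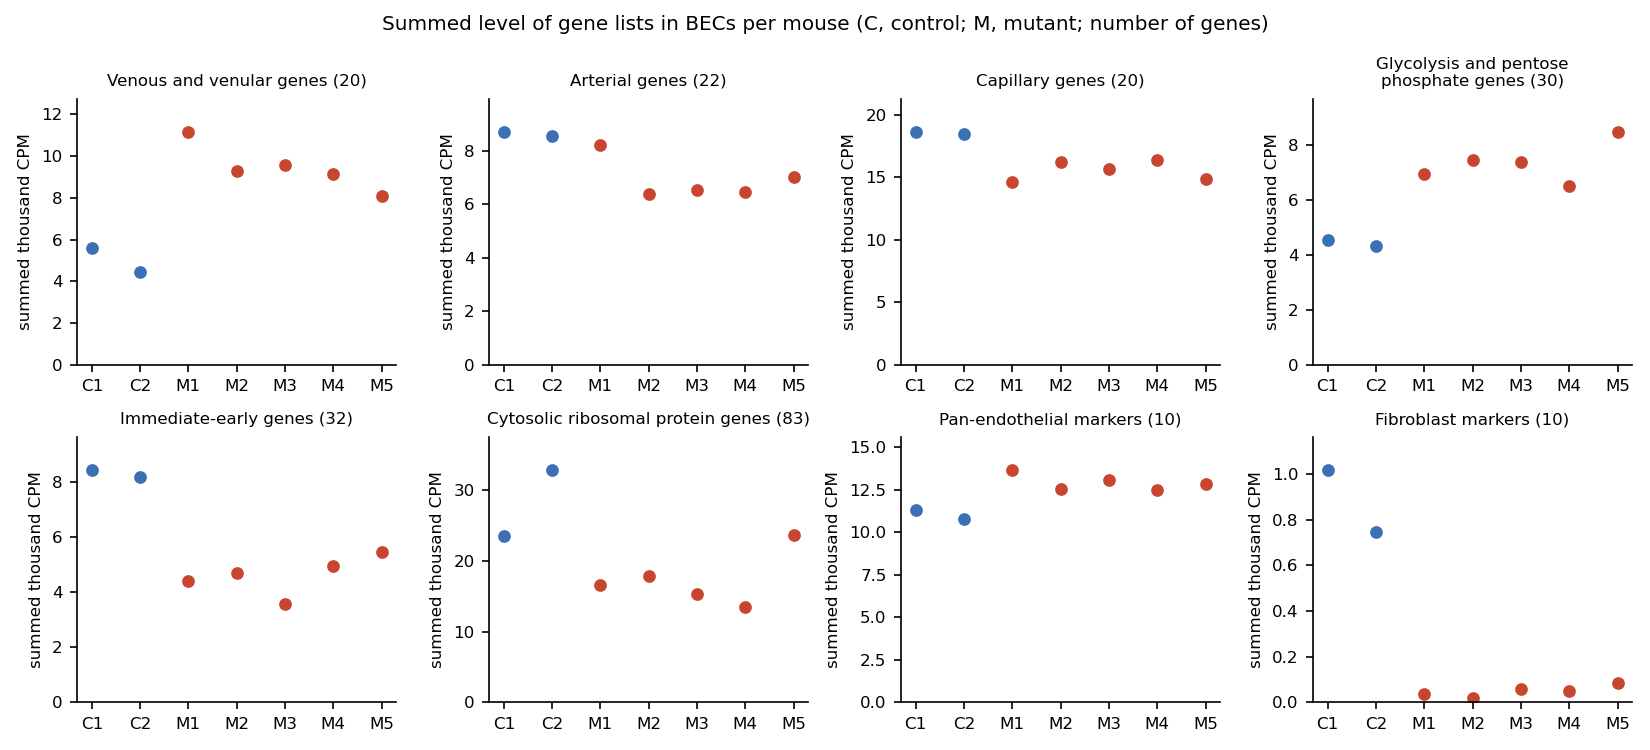
Each panel shows the summed level of a gene list in BECs, in units of 1000 CPM, for control mice 1 and 2 (blue) and mutant mice 1 to 5 (red), with the number of genes in brackets and axes from 0. Venous and glycolysis sums are higher in every mutant mouse and immediate-early sums lower, ribosomal sums overlap between control 1 and mutant 5, and fibroblast markers are at 1018 and 747 CPM in the controls and at 20.1–84.7 CPM in the mutants.

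The largest rises among genes of at least moderate level (mean log2 CPM of at least 3) included genes with few or no reads in control BECs and others at a low level there. *Enpp6*, encoding a choline-specific phosphodiesterase, was at 3.95 and 13.3 CPM in the controls and at 289, 207, 289, 260 and 226 CPM in the mutants (4.89 ± 0.51, adjusted p = 0.00538). *Prokr1*, the receptor of prokineticins, was at 3.63 and 6.12 CPM against 102, 180, 194, 229 and 88.9 CPM (5.03 ± 0.53), and *Slc6a2*, the noradrenaline transporter, at 0.342 and 1.01 CPM against 38.4, 40.3, 43.2, 60.4 and 32.4 CPM (5.99 ± 0.56). *Pdgfc*, a growth factor for cells with PDGF receptor α, rose by 6.07 ± 0.66 and the adhesion receptor *Adgrg6* by 4.71 ± 0.65. *Prdm6*, encoding a chromatin factor, had 0 reads in the control BECs and 4070 in the mutants, at least 366-fold higher when 3 reads over both controls are assumed. *Krt23*, a keratin, had 3 control reads and 6156 mutant reads, a ratio of 553 with an interval of 189–2682. These intervals cover counting error only.

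*Esr1*, encoding estrogen receptor α, was at 0.171 and 0.0963 CPM in the controls and at 18.8, 18, 28.9, 13.4 and 16.6 CPM in mutants 1 to 5 (7.13 ± 0.63, adjusted p = 0.00437). A thinned read was in 1.91% and 0.658% of control BECs and in 31.6–47.3% of mutant BECs, so the gene was spread over many cells, whereas *Krt23* was in 5.61–10.7% and *Prdm6* in 2.24–10.1%. The CreERT2 protein, which the mutant mice alone carry, contains a part of the human estrogen receptor, and in these counts reads from its transcript cannot be told apart from *Esr1* reads. In LECs of the same mice *Esr1* was at 9.18 and 9.11 CPM in the controls and at 5.91–17.1 CPM in the mutants. The source of the reads was not tested in either class.

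The largest falls were in genes of connective tissue. *Col1a1* was at 233 and 194 CPM in the controls and at 10.1, 7.80, 13.1, 5.74 and 27.6 CPM in the mutants, *Dcn*, for the proteoglycan decorin, at 198 and 120 CPM against 0.782–8.07 CPM, and *Chad*, for chondroadherin, at 85.3 and 41.8 CPM against 0–0.0639 CPM. *Angptl7*, *Myoc*, *Col1a2*, *Apod* and *Mfap4* fell as well, with log2 fold changes of -8.04, -5.69, -4.77, -3.58 and -3.46. They moved with the fibroblast markers, of which *Col1a1*, *Col1a2* and *Dcn* are themselves members, and which reached 100 CPM in 54.1% and 28.9% of control BECs but in 3.45–11.2% of mutant BECs. With those wells left out, *Chad* alone of the 8 genes stayed called. The counts over all genes were then 348 higher and 119 lower, and *Mmp2*, *Selp*, *Apln*, *Pkm*, *Egr1* and *Cxcl12* were still called. The fibroblast markers kept a median log2 fold change of -2.20 in this fit, beside -3.57 in all wells, so they remained uneven. Of the other genes named here, the rises of *Nr2f2*, *Vcam1*, *Il1r1*, *Csf1*, *Fbln2*, *Itgb4*, *Pgk1*, *Pfkm*, *Fasn*, *Chaf1b*, *Enpp6* and *Reep1* lost their call, with adjusted p of 0.0507–0.0995, as did the falls of *Bcl6* and *S1pr4* (0.0740 and 0.0603).

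The effects were also looked at within cell classes. The share of cells with arterial markers depended on the markers. BECs in which 6 arterial genes together reached 300 CPM were 43.3% and 42.8% in the controls and 63.8, 44.1, 59.4, 50.9 and 73.7% in the mutants. That set, chosen first, includes *Fbln5*, which was itself called higher. With the remaining 5 genes, *Gja4*, *Gja5*, *Hey1*, *Sema3g* and *Bmx*, a choice added after the data were seen, the shares were 33.1% and 34.9% in the controls and 27.0, 16.1, 22.4, 24.0 and 25.6% in the mutants. The direction thus turned with 1 gene. With the 6-gene cells left out, 22 genes were higher and 3 lower. Within the 6-gene cells alone, a choice added after the data were seen, 250 were higher and 124 lower, with 209 of the 336 called genes among them. By the 5 genes, without these cells 268 genes were higher and 95 lower. Within them alone, at 27 to 73 cells a mouse, edgeR called 2 higher and 2 lower, with 1359 genes at an unadjusted p under 0.05. *Eln* was at 442 and 450 CPM in the arterial-marker cells of the controls and at 1057–1270 CPM in those of the mutants, and *Col18a1* at 208 and 258 CPM against 515–995 CPM. *Cxcl12* was at 3221 and 4499 CPM in these cells of the controls and at 2459–3358 CPM in the mutants, with groups that overlapped, while in the other BECs it was at 3429 and 3447 CPM against 809–1433 CPM. *Selp* was higher in both classes, at 50.2 and 0.988 CPM against 93.1–494 CPM in arterial-marker cells and at 197 and 170 CPM against 543–890 CPM in the others. *Nr2f2* in arterial-marker cells was at 34.6 and 4.41 CPM against 41.2–77.3 CPM.

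**Figure D3:**
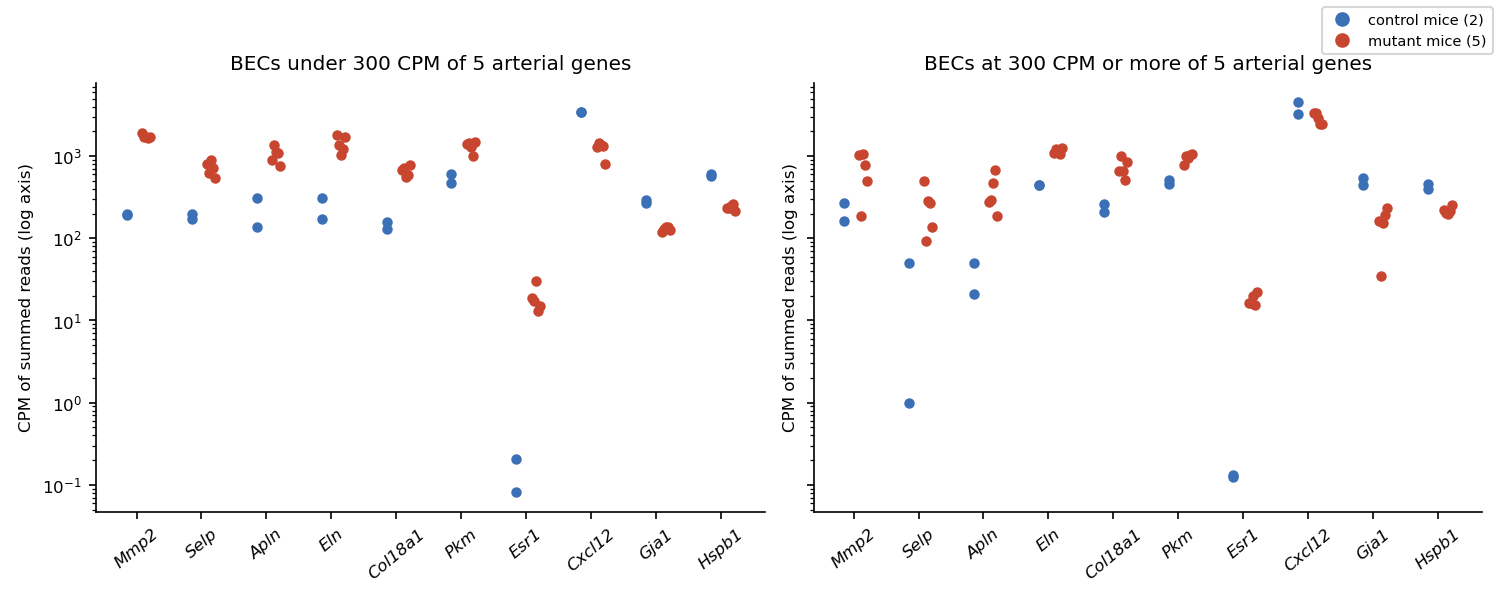
Points are the CPM of 10 genes per mouse, on a log axis, in BECs under 300 CPM of 5 arterial genes (left) and in BECs at or above it (right), with control mice in blue and mutant mice in red. *Eln* and *Col18a1* are higher in mutant mice in both panels, and *Cxcl12* is apart in the left panel and overlaps in the right one.

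Cycling BECs, which the comparison left out, were 1.26% and 3.18% of BECs in the controls and 4.92, 8.70, 5.15, 1.72 and 5.94% in mutants 1 to 5. Mutant 4 lay between the controls. The difference of means, 3.07 percentage points, had a two-sided exact permutation p of 0.190 over 21 splits of the mice, in a design whose smallest p is 0.0952.

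To learn which changes differed between the vessel types, the effect in BECs was set against that in LECs of the same mice, with the mouse as a block. Of 21462 genes, the change was higher in BECs for 22 (0.103%) and lower for 4 (0.0186%). By comparison, LECs alone had 90 genes called higher (0.467% of 19267) and 47 lower (0.244%). Both cell classes come from the same control mice, so their values are given side by side. *Nr2f2* was at 306 and 202 CPM in control LECs and at 180–207 CPM in mutant LECs, a log2 fold change of -0.39 ± 0.17 beside 1.73 ± 0.27 in BECs (difference 2.19 ± 0.21, adjusted p = 0.0137). *Col18a1* was at 999 and 904 CPM in control LECs and at 816–1094 CPM in mutant LECs (difference 2.02 ± 0.19, adjusted p = 0.0137). *Nqo1* was at 389 and 402 CPM against 389–505 CPM in LECs (difference 2.81 ± 0.28, adjusted p = 0.0154). These 3 genes thus stood in control LECs at or above the level of mutant BECs.

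The same held for *Reep1*, a shaper of the endoplasmic reticulum, at 165 and 149 CPM in control LECs (difference 2.89 ± 0.27), and for *Marcksl1* at 96.7 and 199 CPM (2.17 ± 0.27). With BECs limited to cells whose BEC markers were at least 5 times the LEC markers, *Nr2f2*, *Col18a1*, *Nqo1*, *Reep1*, *Marcksl1* and *Esr1* were still called higher in mutant BECs. *Bgn* and *Igfbp4* had negative fold changes in LECs, -0.51 ± 0.29 and -0.83 ± 0.21, that did not pass the test there (adjusted p = 0.40 and 0.11), and differences of 2.50 ± 0.24 and 2.46 ± 0.20. *Spint2*, a serine protease inhibitor, was called in both classes with opposite signs, 0.95 ± 0.19 in BECs and -1.60 ± 0.27 in LECs, but its BEC call held in 1 of 7 fits that left out a mouse (adjusted p up to 0.170). Its difference was 2.62 ± 0.27 (adjusted p = 0.0181).

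The 4 genes with a lower change in BECs rose in LECs. *Ggt5*, a glutathione-processing enzyme, was at 2.29 and 3.05 CPM in control LECs and at 43.2–79.8 CPM in mutant LECs, while in BECs the means were 13.4 and 1.22 CPM (difference -8.30 ± 0.97, adjusted p = 0.0344). *Thbd*, encoding the anticoagulant thrombomodulin, was at 235 and 158 CPM against 637–881 CPM in LECs, beside means of 472 and 390 CPM in BECs (difference -2.19 ± 0.28, adjusted p = 0.0424). *Klk8* and *Sox13* had differences of -7.08 ± 0.55 and -2.53 ± 0.24. By contrast, *Apln* had log2 fold changes of 2.67 in BECs and 3.02 in LECs, *Pkm* of 1.35 and 0.99, and *Egr1* of -1.73 and -2.74, and none of these 3 was called for a difference. Without control 2 or without mutant 4 no gene was called for a difference (edgeR, 2504 and 2193 genes at an unadjusted p under 0.05), against 1071 by DESeq2 in all mice.

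**Figure D4:**
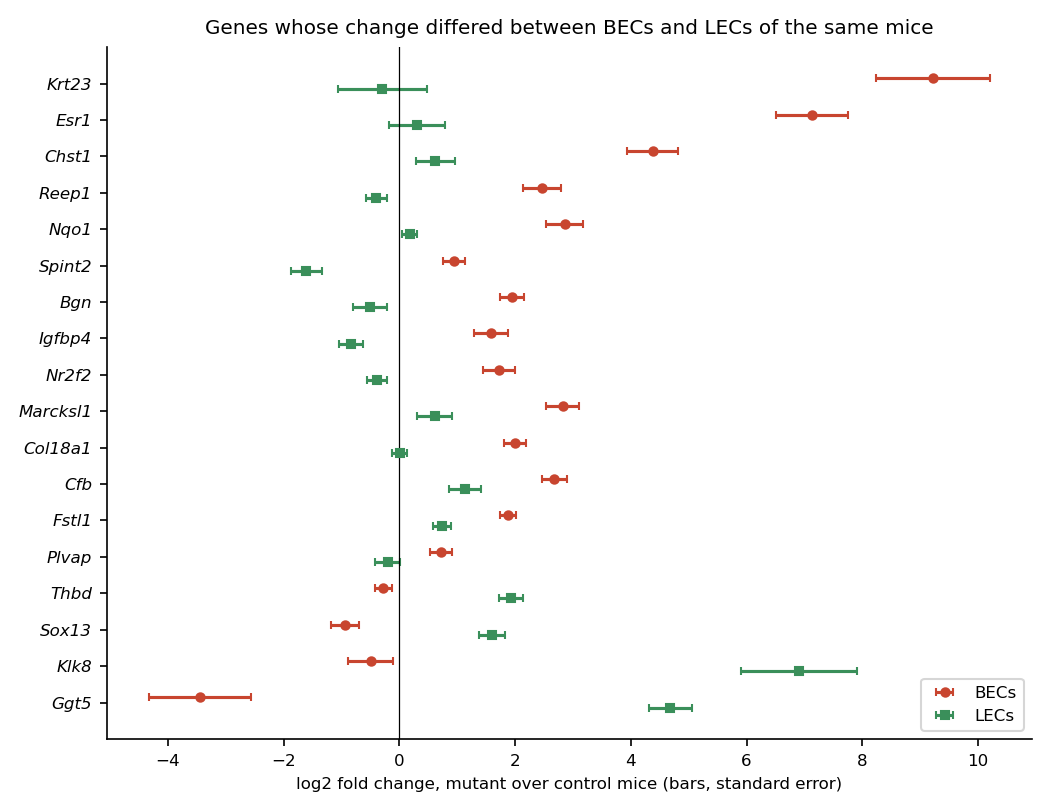
Points are log2 fold changes of mutant over control mice, with bars of 1 standard error, in BECs (red circles) and LECs (green squares) for the 18 named genes called for a difference between the vessel types. *Nr2f2*, *Bgn* and *Igfbp4* are above 0 in BECs and below 0 in LECs, and *Thbd*, *Sox13*, *Klk8* and *Ggt5* show the reverse.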

How the data were processed

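The deposited files hold raw read counts per gene and well. Per the labels and methods, the authors aligned Smart-Seq2 reads with TopHat2 (2.1.1) to GRCm38 with the transgene sequence added, removed duplicates with SAMtools (0.1.18) and counted with featureCounts. The submitters' processing notes also name Seurat (3.1.1) and R (3.5.1). The annotation version is not given in the sources used here. Strand was not used, so overlapping genes on opposite strands cannot be separated. Symbols and positions are from GENCODE vM21 (98.9% of 46517 genes).

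Counts of the chosen cells were summed per mouse, without ERCC spike-ins, and tested with edgeR (version 4.0.16, under R version 4.3.3: default expression filter, TMM scaling, quasi-likelihood F test, Benjamini-Hochberg adjusted p under 0.05), without covariates. CPM of single genes are after TMM scaling. Sums of lists and values within arterial-marker cells are of plain totals. LECs were chosen with the 2 marker sums reversed, and the difference of effects was an interaction term with the mouse as a block. Errors are standard errors of the log2 fold change. Shares of cells were taken after thinning, in Python 3.11.15. The edgeR step was tested on simulated counts. Median depth was 183329.5–321643 reads per BEC, and both depth and the number of control mice (2) limit the precision. ERCC reads were 0.253–0.542% of reads in mutant and 0.770% and 1.05% in control BECs. Replicate numbers do not pair the mice (correlations 0.0294 and 0.0782).

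The members, the gene lists and most tests were chosen with earlier results of these data known. Genes named are, in each functional list, up to 6 called members by lowest p and the 4 members of highest level, the 8 largest called changes in each direction with mean log2 CPM at or above 3, and for the difference of effects the 6 largest in each direction with list members called. Genes of the selection rule, predicted genes, pseudogenes and genes that mark sex are not named as results. Called list members beyond 6 were added after their values were seen. Alternatives were DESeq2 1.42.0 and its size factors, no expression filter, 1 mouse less, the same number of cells per mouse, first plates, thinned or deeper cells, other cycling and marker limits, arterial-marker cells left out, plate series as a block or a subset, sex and a replicate block. Chosen after seeing the data were fibroblast-marker wells left out and 3 further choices of arterial-marker cells. One gene that the naming rule covers is not reported here.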

Additional observations from a re-analysis of the deposited data

Results flagged for a closer look

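In 4 of the 95 groups of 5 mutant mice tested, 1 mouse stood apart from the others by more than Dixon's 95% limit, which chance alone gives in about 1 of 20 groups. These were *Ddah1* at 173 CPM and *Krt23* at 37.5 CPM in mutant 2, *Eno2* at 0.210 CPM in mutant 1 and *Mfap4* at 8.02 CPM in mutant 4.

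The change between mutant and control mice differed between BECs and LECs, by an interaction test in edgeR, for the 18 named genes. The log2 fold change in BECs minus that in LECs was 9.71 for *Krt23*, 6.97 for *Esr1*, 3.82 for *Chst1*, 2.89 for *Reep1*, 2.81 for *Nqo1* and 2.62 for *Spint2*. Among members of the functional lists it was 2.50 for *Bgn*, 2.46 for *Igfbp4*, 2.19 for *Nr2f2*, 2.17 for *Marcksl1*, 2.02 for *Col18a1*, 1.51 for *Cfb*, 1.17 for *Fstl1* and 0.96 for *Plvap*. It was -8.30 for *Ggt5*, -7.08 for *Klk8*, -2.53 for *Sox13* and -2.19 for *Thbd*.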

How the results depend on the processing

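The direction of the 336 called genes was the same in every alternative that tested them, apart from *Mfap4*, whose log2 fold change was 0.94 with BECs of 6 arterial markers left out. That planned choice, which includes the risen gene *Fbln5*, left 22 genes higher and 3 lower. The cells of 6 markers alone, added after seeing the data, gave 250 and 124. With the 5 markers without *Fbln5*, added after seeing the data, counts were 268 and 95 without such cells and 2 and 2 in them alone. Leaving out 1 mouse at a time gave 87–276 genes higher and 35–219 lower, beside 245 and 91. Counts moved by over 1.5 times without control 2 (111 and 45), mutant 1 (115 and 41), mutant 2 (112 and 43), mutant 3 (87 and 35) and mutant 4 (149 and 55), and without mutant 5 for lower genes (219). Of the 94 called genes that were followed singly, 30 stayed called in all 7 of these fits. DESeq2 called 1329 and 661, and a cycling limit of 100 CPM left 157 and 52. With the plate series as a block 36 were higher and 9 lower, and with mutant 5 against the controls alone 0 and 0 (edgeR, 1120 at an unadjusted p under 0.05). In the plate series block too, the genotype effect came from mutant 5 against the controls. The replicate block gave 19 and 7, where the numbers do not pair the mice. Genes whose change differed between BECs and LECs, 26 in all, were 0–18 with 1 mouse left out (5 without control 1, 0 without control 2 or mutant 4, 1 without mutant 1, 15 without mutant 2 or mutant 3), 1071 by DESeq2, 41 with cycling cells kept, 10 at the lower cycling limit and 42 with own markers at least 5 times the other class. The cause of these moves was not tested. The cycling share differed by 2.66–4.78 percentage points over its alternatives, with exact p of 0.190–0.286 in the same permutation test, which could not reach 0.05.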
